A study of Mus musculus with 27 samples.

Results

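The proneural basic helix-loop-helix (bHLH) transcription factors were followed through fetal brain development in 3 mouse strains. The 9 members, Neurog1, Neurog2, Neurog3, Neurod1, Neurod2, Neurod4, Neurod6, Bhlhe22 and Nhlh1, were chosen by gene symbol from the 55416 genes of the read-count table, and each symbol matched 1 row. The data are RNA-seq of whole fetal brains: 27 libraries, 3 from each strain at each of 3 gestational ages, days 12, 15 and 17 (d12, d15, d17), counting the day of the vaginal plug as day 1. The strains were AKR/J and B6.Cg-Cav1tm1Mls/J (Cav1-null), which the study treats as short-lived, and C57BL/6J, which it treats as long-lived. Cav1-null mice carry a targeted allele of Cav1, the gene of the caveolae protein caveolin-1, and their strain name gives a C57BL/6 background; the strain names of AKR/J and C57BL/6J, both inbred, name no targeted allele. All fetuses were labelled female and came from timed pregnancies of mice about 8 weeks old, and no treatment is named in the labels. Nothing in the labels says which fetuses shared a litter, so the p-values measure the spread between these libraries only. Each member was compared between successive days within a strain, called the early phase (d12 to d15) and the late phase (d15 to d17), and between each short-lived strain and C57BL/6J on the same day.

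Proneural bHLH factors pair with E-proteins, bind E-box DNA (CANNTG) and switch on programs of neuronal differentiation. Neurogenins act first, in dividing progenitors, where Notch signaling through the Hes repressors holds them down; Nhlh1, Neurod4 and Neurod1 follow in cells that leave the cycle, and Neurod2, Neurod6 and Bhlhe22 are kept on in young excitatory neurons, above all in the cortex. Id proteins block the family by binding the E-proteins.

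The depth of a library, as reads on genes, was 26363697 at the lowest and 39759702 at the highest. Expression is given below in CPM, the reads of a gene per 1000000 reads of its library with library sizes scaled by the TMM method, and the 3 values of a group follow the order of replicates 1, 2 and 3. Cav1 was at 0 to 0.509 CPM in the 9 Cav1-null libraries and at 9.24 to 39.9 CPM in the other 18. All 7 neuronal and all 7 progenitor markers had reads in every library. The d12 libraries numbered 3 stood apart in forebrain genes. Tbr1, a gene of cortical neurons, had 0 reads in AKR/J replicate 3 against 49.9 and 40.3 CPM in the other two, 36.6 CPM in C57BL/6J replicate 3 against 123 and 157, and 7.70 CPM in Cav1-null replicate 3 against 82.8 and 65.4. The d12 libraries numbered 1 of AKR/J and C57BL/6J stood apart in En2, a midbrain and hindbrain gene, at 0.783 CPM against 20.7 and 74.8 CPM and at 3.25 CPM against 92.2 and 106 CPM in the other two. Genes of erythroid cells took 3.56 to 13.6% of the reads of the AKR/J d12 libraries and 1.93% or less in each of the other 24 libraries. Placenta and decidua genes summed to 37.3 to 752 CPM in AKR/J on d12 and to at most 77.6 CPM in any other library. Expression also followed GC content differently between libraries: the log2 level rose by 0.240 to 0.495 for each 10 points of GC in the C57BL/6J libraries of d12 and d15, and by -0.345 to 0.0861 in all AKR/J and Cav1-null libraries. In whole-brain RNA, fewer cells of a type and less RNA per cell cannot be told apart.

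The members lie on 7 chromosomes of GRCm39. Neurog1 is a single exon at chr13:56398291-56399976, Neurog2 has 2 exons at chr3:127426448-127429280, Neurog3 lies at chr10:61968862-61970766 and Nhlh1 at chr1:171879859-171885140. The NeuroD genes lie at chr2:79282865-79287294 (Neurod1), chr11:98216241-98220480 (Neurod2), chr10:130104021-130116132 (Neurod4) and chr6:55654807-55658326 (Neurod6), and Bhlhe22 lies at chr3:18108338-18111681. Neurog2, Neurog3 and Bhlhe22 are on the + strand and the other members on the - strand. Their exons differ in GC content from 38.1% (Neurod4), 42.1% (Neurod6) and 44.1% (Neurod1) to 58.0% (Neurog1) and 58.3% (Neurod2), which bears on comparisons between libraries of unequal GC trend.

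The 250 bases before the transcription start are shown for 4 members that changed between days. Neurod2 and Neurod6 rose from d12 to d15 in at least 1 strain, and Neurog2 and Nhlh1, like Neurog1, which is not shown, fell from d15 to d17 in all 3 strains. Capitals mark every CANNTG, the E-box that bHLH dimers bind; the sequences are from the GRCm39 genome on the strand of the gene, with starts from GENCODE vM39.
Neurod2 (chr11:98220481-98220730, - strand): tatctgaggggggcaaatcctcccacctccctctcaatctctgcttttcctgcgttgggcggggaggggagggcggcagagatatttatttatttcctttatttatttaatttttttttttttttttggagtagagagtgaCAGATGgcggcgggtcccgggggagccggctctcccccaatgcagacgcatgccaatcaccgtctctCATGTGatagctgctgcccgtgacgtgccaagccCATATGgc
Neurod6 (chr6:55658327-55658576, - strand): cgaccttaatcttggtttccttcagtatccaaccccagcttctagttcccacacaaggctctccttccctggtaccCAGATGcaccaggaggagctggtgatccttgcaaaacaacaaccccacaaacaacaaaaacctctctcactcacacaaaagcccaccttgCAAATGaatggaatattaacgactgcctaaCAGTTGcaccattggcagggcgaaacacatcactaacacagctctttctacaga
Neurog2 (chr3:127426198-127426447, + strand): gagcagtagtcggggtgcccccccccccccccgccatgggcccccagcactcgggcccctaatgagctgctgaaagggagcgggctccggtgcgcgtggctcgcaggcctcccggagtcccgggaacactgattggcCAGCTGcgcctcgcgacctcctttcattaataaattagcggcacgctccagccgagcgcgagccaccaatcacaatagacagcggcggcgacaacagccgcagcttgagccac
Nhlh1 (chr1:171885141-171885390, - strand): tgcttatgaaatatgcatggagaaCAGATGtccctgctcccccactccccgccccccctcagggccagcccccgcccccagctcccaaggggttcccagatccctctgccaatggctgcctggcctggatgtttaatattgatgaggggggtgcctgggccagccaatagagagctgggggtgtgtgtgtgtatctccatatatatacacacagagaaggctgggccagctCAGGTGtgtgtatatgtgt
Neurod2 and Neurod6 hold 3 E-boxes each, Nhlh1 holds 2 and Neurog2 holds 1. CAGATG (or CATCTG, the same box read on the other strand) occurs in Neurod2, Neurod6 and Nhlh1, and also in Neurod1. It occurs in 13.0% of the windows of 21770 genes. CAGCTG occurs in Neurog2 and Neurog3, against 11.9% of all windows. Any CANNTG was found in 7 of the 8 members searched, not in Neurod4, and in 64.8% of all windows. The member not searched was Bhlhe22. A match describes the letters of the window and does not show that a factor binds there.

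Within the family, the share of Neurog2 shrank from d12 to d17 and that of Neurod6 grew, in all 3 strains. Levels of different genes were compared as CPM per kilobase of exon. On d12, Neurog2 made up 32.7 ± 1.42% (SD, n = 3) of the summed level of the family in AKR/J. It made up 33.6 ± 3.92% in C57BL/6J and 25.3 ± 1.66% in Cav1-null fetuses. By d17 its share was 4.12 ± 0.766%, 3.28 ± 0.671% and 2.26 ± 0.193%. Neurod6, a marker of cortical pyramidal neurons, went the other way, from 10.2 ± 9.46%, 18.9 ± 10.9% and 38.4 ± 8.65% on d12 to 62.7 ± 1.95%, 48.6 ± 8.20% and 61.4 ± 1.75% on d17.

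**Figure D1:**
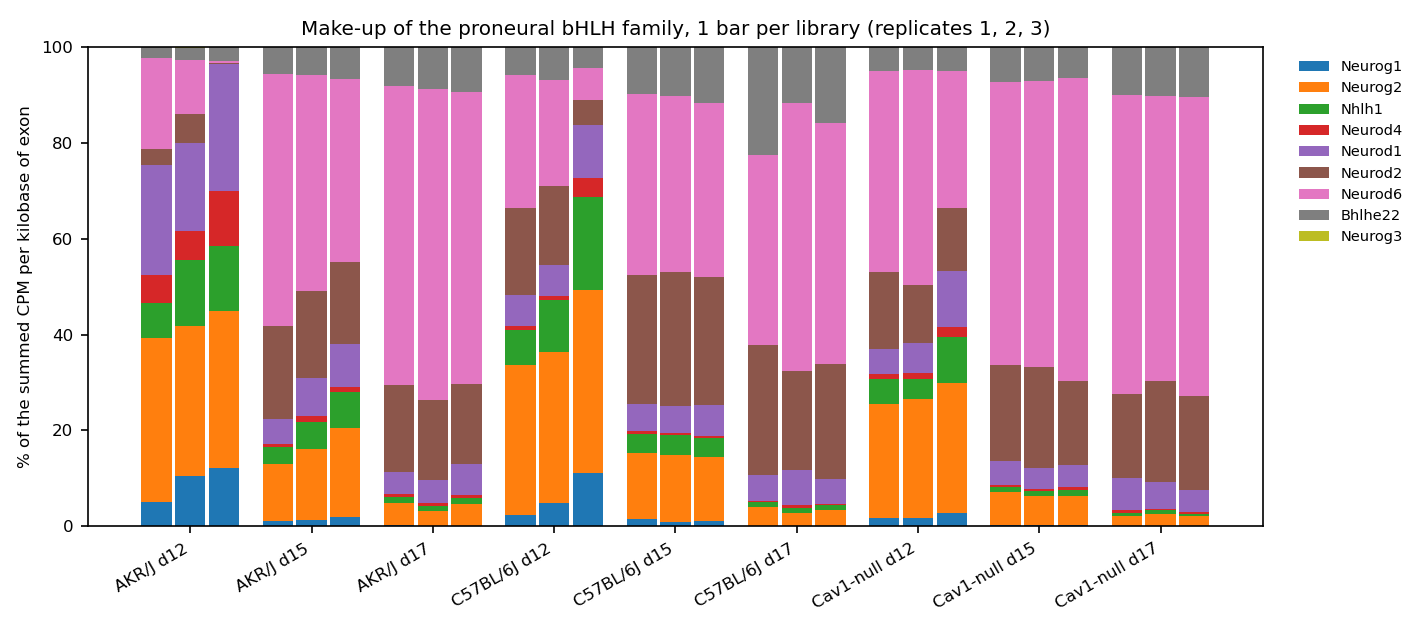
Stacked bars show, for each of the 27 libraries, the percent of the family's summed CPM per kilobase of exon that each of the 9 members makes up. Neurog2 shrinks from between 23.8 and 38.1% on d12 to between 2.15 and 4.67% on d17, and Neurod6 is the largest part of every d15 and d17 bar.

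In C57BL/6J on d15 the levels per kilobase stood in the order Neurod6 (118 ± 8.40), Neurod2 (87.2 ± 8.14), Neurog2 (44.2 ± 3.69), Bhlhe22 (34.0 ± 1.92), Neurod1 (18.7 ± 0.479), Nhlh1 (12.8 ± 1.04), Neurog1 (3.72 ± 0.788) and Neurod4 (1.64 ± 0.280), as CPM per kilobase with SD and n = 3. No 2 neighbors in this order overlapped within 1 SD. In AKR/J on d12 the order was led by Neurog2 (30.9 ± 4.91) and Neurod1 (21.3 ± 4.34). Behind them Nhlh1 (10.6 ± 2.42), Neurod6 (10.2 ± 10.1), Neurog1 (8.51 ± 2.67) and Neurod4 (7.24 ± 2.44) overlapped within 1 SD.

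Neurog3, which drives endocrine cell formation in the pancreas, was at or near 0. It had 0 reads in 12 of the 27 libraries, among them all 9 of d17, and at most 12 reads (0.367 CPM) in any. A count of 0 allows up to 3 reads, which is 0.0794 to 0.152 CPM in these libraries. Its exons share 797 bases with Fam241b on the opposite strand, which had a median of 1272 reads, and the sources used here do not state whether reads were counted by strand. With all libraries of the groups, Neurog3 did not pass the filter on low counts in any comparison and was not tested. With 1 library left out it passed in 4 fits of Cav1-null against C57BL/6J on d12 and in 10 of the Cav1-null early interaction, and was called in none. The other 8 members passed it in every comparison. None of them shares exon bases with a gene of more than a median of 21 reads in the count table.

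In the early phase, 2 of the 8 tested members rose and 2 fell in AKR/J, where 28.9% of all tested genes were called, 14.8% higher and 14% lower. In C57BL/6J 1 member rose and 2 fell, beside 14.9% of genes called, 7.08% higher and 7.8% lower. In Cav1-null fetuses 3 rose and 3 fell, beside 23.4% called, 11.6% higher and 11.8% lower. Early calls thus went both ways among the members, as they did among all genes. Other RNA moved with the early changes in AKR/J: erythroid genes took 3.56 to 13.6% of reads on d12 and 0.215 to 0.332% on d15, placenta and decidua genes summed to 37.3 to 752 CPM and then 0.471 to 5.13 CPM, and the 7 neuron genes to 1696 to 2155 CPM and then 3709 to 5420 CPM. Their part in the early AKR/J changes was not tested. In the late phase, 1 member rose and 4 fell in AKR/J, beside 22.1% of genes called, 11.6% higher and 10.4% lower. In C57BL/6J none rose and 4 fell, beside 13% called, 7.46% higher and 5.58% lower. In Cav1-null fetuses none rose and 7 fell, beside 27.3% called, 14.5% higher and 12.8% lower. A gene was called when its adjusted p was under 0.05 in edgeR's quasi-likelihood test. Log2 fold changes between days are above 0 where the later day was higher, and each is followed by its SE.

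**Figure D2:**
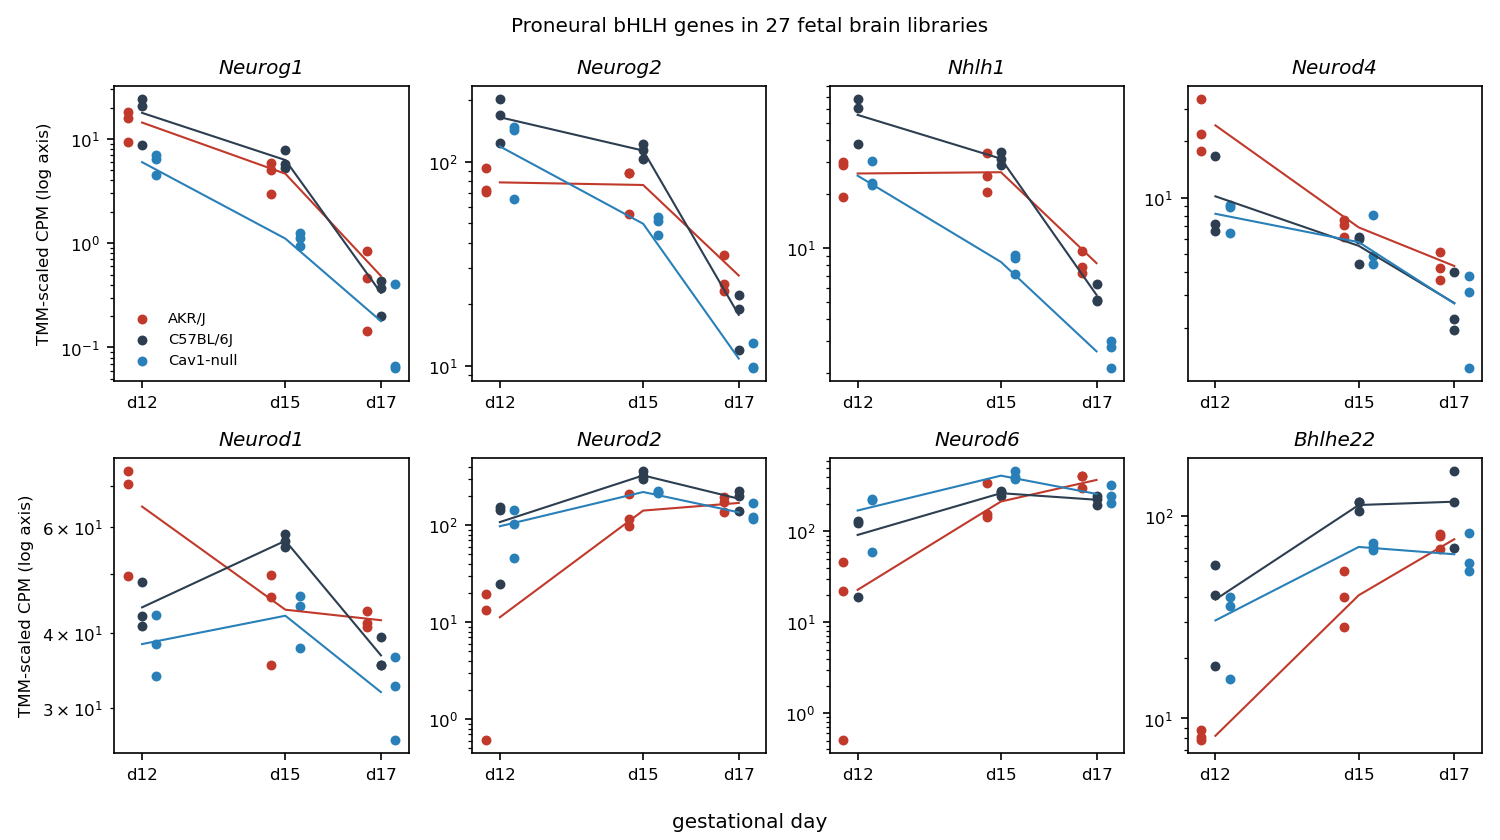
Each panel plots 1 member, with the gestational day on the x axis and the TMM-scaled CPM on a log y axis; points are libraries, lines join the means of 3 libraries, and colors are strains. Neurog1, Neurog2, Nhlh1 and Neurod4 end lowest on d17, Neurod2, Neurod6 and Bhlhe22 start lowest on d12, and Neurod1 stays between 26.6 and 74.1 CPM.

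Neurog1, a neurogenin of sensory and cerebellar lineages and of the cortex, fell in both phases in every strain, by 3.20-, 2.92- and 5.37-fold from d12 to d15 in AKR/J, C57BL/6J and Cav1-null fetuses and by 9.27-, 17.8- and 6.11-fold from d15 to d17. In AKR/J it was at 9.31, 15.8 and 18.0 CPM on d12, 5.03, 2.99 and 5.88 CPM on d15 and 0.843, 0.145 and 0.467 CPM on d17. In C57BL/6J it was at 8.71, 20.7 and 23.9 CPM, then 7.78, 5.75 and 5.28 CPM and then 0.199, 0.432 and 0.372 CPM. Cav1-null fetuses had 7.06, 6.42 and 4.47 CPM, 0.941, 1.26 and 1.12 CPM and 0.0668, 0.407 and 0.0636 CPM. No library of a later day reached one of an earlier day in the same strain. The early change was log2 fold change -1.68, SE 0.35, adjusted p = 0.0105 in AKR/J, log2 fold change -1.55, SE 0.37, adjusted p = 0.0385 in C57BL/6J and log2 fold change -2.42, SE 0.27, adjusted p = 0.000675 in Cav1-null fetuses. The late change was log2 fold change -3.21, SE 0.52, adjusted p = 0.00454 in AKR/J, log2 fold change -4.15, SE 0.34, adjusted p = 0.00350 in C57BL/6J and log2 fold change -2.61, SE 0.59, adjusted p = 0.00516 in Cav1-null fetuses. On d17 several values lie near the floor of 3 reads, so the size of the late change is uncertain. Without d17 replicate 1 the late log2 fold change in AKR/J was -3.88, and without d17 replicate 2 that in Cav1-null fetuses was -3.99, both still called. All 6 changes were also called with the GC trend removed from the libraries. With library sizes alone in place of TMM, which moved the median of all genes by 0.44 (log2) in AKR/J, the early AKR/J call was lost. The early C57BL/6J call was lost without d12 replicate 2, without d12 replicate 3 (log2 fold change -1.24, adjusted p = 0.0514) or without any 1 of the d15 libraries.

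Neurog2, the main neurogenin of the dorsal forebrain, fell late in every strain, by 2.74-fold in AKR/J, 6.10-fold in C57BL/6J and 4.56-fold in Cav1-null fetuses. In AKR/J it was at 93.6, 70.9 and 72.9 CPM on d12, 87.8, 55.2 and 87.5 CPM on d15 and 34.7, 23.1 and 25.1 CPM on d17. C57BL/6J had 169.7, 202 and 124 CPM, 114, 122 and 103 CPM and 22.2, 11.9 and 19.0 CPM, and Cav1-null fetuses had 147, 143 and 65.5 CPM, 53.5, 43.8 and 51.4 CPM and 9.73, 9.86 and 12.9 CPM. The d12 and d15 values of AKR/J overlapped, while those of the other 2 strains did not. The late fall was log2 fold change -1.46, SE 0.20, adjusted p = 0.00251 in AKR/J, log2 fold change -2.61, SE 0.24, adjusted p = 0.00375 in C57BL/6J and log2 fold change -2.19, SE 0.12, adjusted p = 4.31e-07 in Cav1-null fetuses. These 3 calls were made with every library left out in turn. The early change passed the test in Cav1-null fetuses, at log2 fold change -1.25, SE 0.26, adjusted p = 0.00980. In AKR/J it was log2 fold change -0.09, SE 0.22, adjusted p = 0.795 and in C57BL/6J log2 fold change -0.59, SE 0.16, adjusted p = 0.0521. Without C57BL/6J d12 replicate 3, the library low in Tbr1, the C57BL/6J value was log2 fold change -0.74, adjusted p = 0.00587, and with the GC trend removed it was log2 fold change -0.71, adjusted p = 0.0179. The Cav1-null call was lost without d15 replicate 2 or without d15 replicate 3.

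Nhlh1, a bHLH factor switched on in newborn neurons, fell late by 3.18-, 5.52- and 3.15-fold in AKR/J, C57BL/6J and Cav1-null fetuses. It was at 19.2, 30.04 and 28.9 CPM in AKR/J on d12, 25.2, 20.5 and 33.7 CPM on d15 and 9.63, 7.20 and 7.81 CPM on d17. In C57BL/6J the values were 37.8, 67.5 and 60.6 CPM, 31.3, 34.1 and 29.0 CPM and 6.26, 5.03 and 5.08 CPM. In Cav1-null fetuses they were 30.7, 22.9 and 22.3 CPM, 9.06, 7.16 and 8.78 CPM and 2.77, 3.02 and 2.13 CPM. As for Neurog2, only the d12 and d15 libraries of AKR/J overlapped. Nhlh1 fell early in C57BL/6J (log2 fold change -0.86, SE 0.20, adjusted p = 0.0358) and Cav1-null fetuses (log2 fold change -1.60, SE 0.17, adjusted p = 0.000562) and gave log2 fold change -0.02, SE 0.25, adjusted p = 0.951 in AKR/J. The late changes in the same order of strains were log2 fold change -1.67, SE 0.19, adjusted p = 0.00139, then log2 fold change -2.46, SE 0.16, adjusted p = 0.00176 and then log2 fold change -1.65, SE 0.18, adjusted p = 2.83e-05. The late calls and the early Cav1-null call were made with every library left out in turn. The early C57BL/6J call was lost without any 1 of the 3 d15 libraries.

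Neurod4, which drives differentiation in retina, midbrain and sensory lineages, was among the lowest members. Its d12 values were 21.8, 17.7 and 33.6 CPM in AKR/J, 6.60, 7.19 and 16.7 CPM in C57BL/6J and 8.89, 9.18 and 6.48 CPM in Cav1-null fetuses. By d17 its group means were 4.30 ± 0.747, 2.72 ± 1.10 and 2.70 ± 1.33 CPM (SD, n = 3). It fell 3.63-fold early in AKR/J (log2 fold change -1.86, SE 0.27, adjusted p = 0.00297), where every d12 library lay above every d15 library. The early changes in C57BL/6J (log2 fold change -0.94, SE 0.39, adjusted p = 0.129) and Cav1-null fetuses (log2 fold change -0.50, SE 0.27, adjusted p = 0.212) did not pass. The Cav1-null value passed without d12 replicate 3 (log2 fold change -0.64, adjusted p = 0.0318) and with the GC trend removed (log2 fold change -0.82, adjusted p = 0.0394). Late falls were called in AKR/J (log2 fold change -0.67, SE 0.20, adjusted p = 0.0429) and Cav1-null fetuses (log2 fold change -1.08, SE 0.33, adjusted p = 0.0274), and the value in C57BL/6J was log2 fold change -0.96, SE 0.30, adjusted p = 0.0734. Without C57BL/6J d17 replicate 2 that value was log2 fold change -1.32, adjusted p = 0.0197, and with the GC trend removed it was log2 fold change -1.56, adjusted p = 0.00560. The late AKR/J call was lost without d15 replicate 1, d15 replicate 3, d17 replicate 2 or d17 replicate 3, and the late Cav1-null call without d15 replicate 3 or d17 replicate 2.

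Neurod1, which carries neurogenin-expressing cells into neuronal differentiation, varied least over the 27 libraries, from 26.6 to 74.1 CPM. AKR/J had 74.1, 49.7 and 70.6 CPM on d12, 45.8, 35.4 and 49.8 CPM on d15 and 41.0, 41.6 and 43.4 CPM on d17. C57BL/6J had 41.1, 48.6 and 42.6 CPM, then 55.4, 56.9 and 58.3 CPM and then 35.4, 39.4 and 35.3 CPM, so that its d15 libraries lay above all others of the strain. Cav1-null fetuses had 38.3, 42.8 and 33.9 CPM, 46.0, 37.8 and 44.3 CPM and 36.5, 26.6 and 32.6 CPM. Neurod1 fell late in C57BL/6J (log2 fold change -0.57, SE 0.10, adjusted p = 0.0173) and Cav1-null fetuses (log2 fold change -0.42, SE 0.11, adjusted p = 0.0154), by 1.49- and 1.33-fold. Each of these calls was kept in 2 of the 6 fits that left out 1 library. In C57BL/6J it was lost without any 1 of the d15 libraries or without d17 replicate 3, and in Cav1-null fetuses without d15 replicate 1, d15 replicate 3, d17 replicate 2 or d17 replicate 3. The early values were log2 fold change -0.61, SE 0.21, adjusted p = 0.0562 in AKR/J, log2 fold change 0.32, SE 0.09, adjusted p = 0.0548 in C57BL/6J and log2 fold change 0.16, SE 0.11, adjusted p = 0.355 in Cav1-null fetuses, and none passed. The AKR/J value was called lower by the DESeq2 Wald test, with RLE size factors and in 1 model of all 27 libraries, and the C57BL/6J value was called higher by the DESeq2 Wald test and with RLE size factors. The late value in AKR/J was log2 fold change -0.04, SE 0.12, adjusted p = 0.841.

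Neurod2, a regulator of cortical and hippocampal neuron maturation, rose 12.1-fold from d12 to d15 in AKR/J and 2.27-fold in Cav1-null fetuses. In AKR/J it was at 13.4, 19.7 and 0.610 CPM on d12, 209, 98.7 and 116 CPM on d15 and 197, 173 and 138 CPM on d17. C57BL/6J had 144, 154 and 24.7 CPM, 321, 358 and 298 CPM and 225, 140.1 and 198 CPM. Cav1-null fetuses had 145, 102 and 46.1 CPM, 226, 221 and 212 CPM and 115, 122 and 171 CPM. In every strain all d15 libraries lay above all d12 libraries, and d12 replicate 3, the library with the least Tbr1, was the lowest of its group. The early rise was called in AKR/J (log2 fold change 3.59, SE 0.89, adjusted p = 0.0187) and Cav1-null fetuses (log2 fold change 1.18, SE 0.32, adjusted p = 0.0281) and was log2 fold change 1.56, SE 0.57, adjusted p = 0.0963 in C57BL/6J. Without d12 replicate 3 of the strain it was log2 fold change 3.05, adjusted p = 0.00734, log2 fold change 0.84, adjusted p = 3.37e-05 and log2 fold change 1.10, adjusted p = 0.00272, so that it passed in all 3 strains. The AKR/J log2 fold change was 4.24 without d12 replicate 2. The AKR/J call was lost without d12 replicate 1, d15 replicate 1 or d15 replicate 3, and the Cav1-null call without d12 replicate 2 or any 1 of the d15 libraries.

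Neurod6 rose 2.44-fold from d12 to d15 in Cav1-null fetuses, and its libraries of the same days did not overlap in the other strains either. AKR/J had 45.6, 22.2 and 0.508 CPM on d12, 337, 146 and 156 CPM on d15 and 402, 402 and 300.5 CPM on d17. C57BL/6J had 131, 124 and 19.2 CPM, 269, 278 and 242 CPM and 196, 225 and 247 CPM, and Cav1-null fetuses had 225, 224 and 60.0 CPM, 399, 375 and 457 CPM and 245, 205 and 325 CPM. Again no d12 library reached a d15 library of its strain. The early rise passed in Cav1-null fetuses (log2 fold change 1.28, SE 0.40, adjusted p = 0.0469), and the values were log2 fold change 3.18, SE 1.06, adjusted p = 0.0549 in AKR/J and log2 fold change 1.49, SE 0.59, adjusted p = 0.118 in C57BL/6J. Without d12 replicate 3 of the strain all 3 passed, at log2 fold change 0.88, adjusted p = 2.30e-06, log2 fold change 2.62, adjusted p = 0.0180 and log2 fold change 1.01, adjusted p = 0.00301. The Cav1-null call was lost without d12 replicate 1, d12 replicate 2 or any 1 of the d15 libraries, and with the GC trend removed (log2 fold change 1.15, adjusted p = 0.0702). The DESeq2 Wald test and 1 model of all 27 libraries did not make it either. Without d12 replicate 1 the AKR/J log2 fold change was 4.16 and not called. The AKR/J value was also called with the GC trend removed, without a filter on low counts and in 1 model of all 27 libraries. From d15 to d17 Neurod2 and Neurod6 both fell in Cav1-null fetuses, Neurod2 by 1.61-fold (log2 fold change -0.69, SE 0.12, adjusted p = 0.000919) and Neurod6 by 1.58-fold (log2 fold change -0.66, SE 0.13, adjusted p = 0.00249). In C57BL/6J the late values were log2 fold change -0.73, SE 0.21, adjusted p = 0.0568 and log2 fold change -0.18, SE 0.15, adjusted p = 0.425, and with the GC trend removed they were log2 fold change -0.55, adjusted p = 0.0354 and log2 fold change -0.47, adjusted p = 0.0495. In AKR/J they were log2 fold change 0.28, SE 0.26, adjusted p = 0.483 and log2 fold change 0.80, SE 0.30, adjusted p = 0.0896, and the groups overlapped. Without AKR/J d15 replicate 1 both were called higher. Over the fits that left out 1 library the AKR/J log2 fold changes reached 0.67 for Neurod2 and 1.30 for Neurod6.

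Bhlhe22, a repressor that helps to set the identity of upper and lower layer cortical neurons, rose from d12 to d15 in all 3 strains, by 4.80-, 2.86- and 2.32-fold in AKR/J, C57BL/6J and Cav1-null fetuses. In AKR/J it was at 8.08, 7.83 and 8.74 CPM on d12, 53.6, 28.4 and 40.1 CPM on d15 and 79.9, 81.8 and 69.1 CPM on d17. In C57BL/6J it was at 41.0, 57.05 and 18.2 CPM, 106, 117 and 117 CPM and 166, 69.9 and 117 CPM, and in Cav1-null fetuses at 39.9, 36.0 and 15.7 CPM, 73.3, 67.8 and 70.2 CPM and 58.9, 53.3 and 82.2 CPM. All d15 libraries lay above all d12 libraries of the strain. The early rise was log2 fold change 2.26, SE 0.25, adjusted p = 0.00136 in AKR/J, log2 fold change 1.51, SE 0.34, adjusted p = 0.0336 in C57BL/6J and log2 fold change 1.22, SE 0.28, adjusted p = 0.0142 in Cav1-null fetuses. Without d12 replicate 3 it was log2 fold change 2.31, adjusted p = 0.00753, log2 fold change 1.18, adjusted p = 0.00399 and log2 fold change 0.90, adjusted p = 1.75e-06. The C57BL/6J call was lost without d12 replicate 1 or any 1 of the d15 libraries, and the Cav1-null call without d15 replicate 1 or d15 replicate 3. Late, Bhlhe22 rose 1.91-fold in AKR/J (log2 fold change 0.94, SE 0.20, adjusted p = 0.0125), a call lost without d17 replicate 2, and gave log2 fold change 0.12, SE 0.29, adjusted p = 0.793 in C57BL/6J and log2 fold change -0.12, SE 0.13, adjusted p = 0.553 in Cav1-null fetuses.

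**Figure D3:**
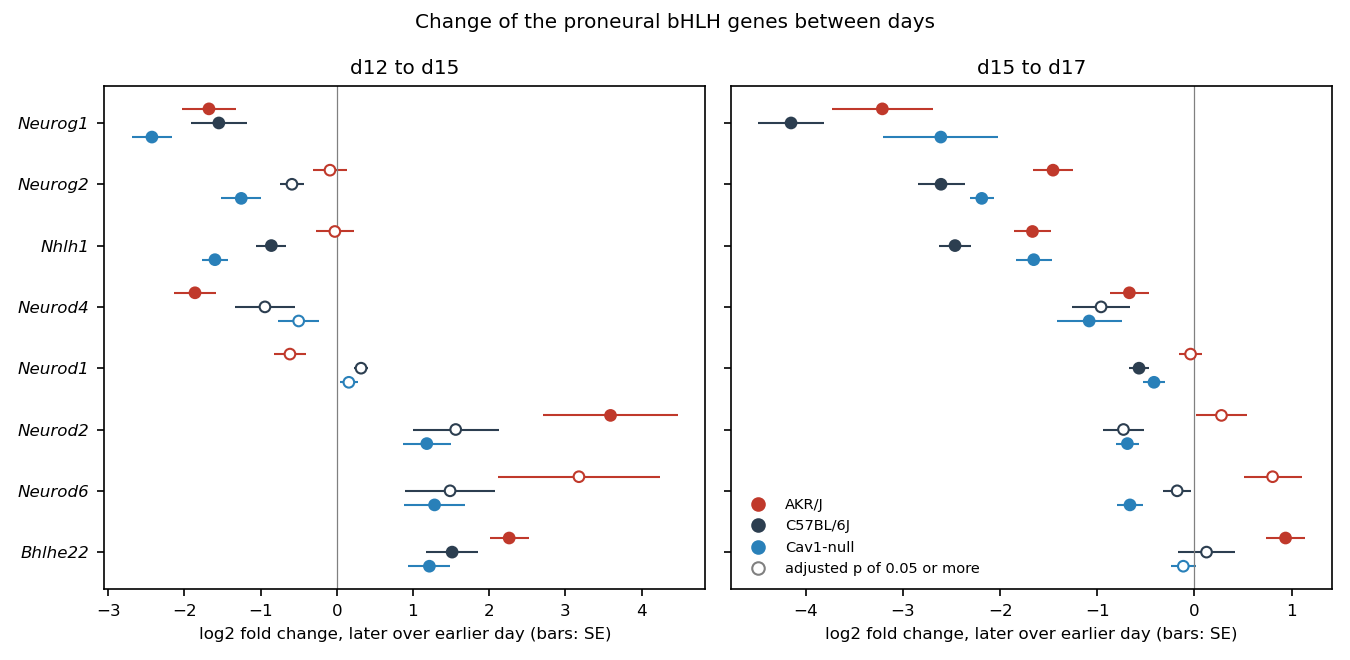
Points give the log2 fold change, later over earlier day, of the 8 tested members in each strain, with bars of 1 SE; filled points passed an adjusted p of 0.05 and open points did not. The late panel shows Neurog1, Neurog2 and Nhlh1 filled and below 0 in all 3 strains, and the early panel shows Bhlhe22 filled and above 0 in all 3.

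Some counts rested on single libraries. Shares of all genes called are given for the main fits only. In AKR/J the late count went from 5 to 3 without d17 replicate 2. In C57BL/6J the early count went from 3 to 5 without d12 replicate 3 and to 0 without any 1 of the d15 libraries. In Cav1-null fetuses the early count went from 6 to 3 without d15 replicate 1 or d15 replicate 2 and to 2 without d15 replicate 3. Without d12 replicate 3 there were 5 early calls in AKR/J and 7 in Cav1-null fetuses.

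The ratio of Neurog2 to Neurod6 reads within a library, which needs no scaling of library sizes, fell with each day. Neurog2 is 56.2% GC and Neurod6 42.1%, and the part of the unequal GC trends of the libraries was not tested. In C57BL/6J there were 1.30, 1.63 and 6.46 Neurog2 reads for each Neurod6 read on d12, 0.424, 0.439 and 0.427 on d15 and 0.113, 0.0530 and 0.0770 on d17. In Cav1-null fetuses there were 0.654, 0.641 and 1.09, then 0.134, 0.117 and 0.113 and then 0.0397, 0.0482 and 0.0397. In AKR/J there were 2.05, 3.19 and 144, then 0.260, 0.379 and 0.559 and then 0.0863, 0.0575 and 0.0837. The days did not overlap in any strain, and no test was run on the ratio. The highest ratio of each strain on d12 was in replicate 3, and in AKR/J it came from 10 Neurod6 reads.

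In the AKR/J d12 library poorest in forebrain genes, Neurod2 and Neurod6 were close to 0 and Neurog2 was not. In AKR/J d12 replicate 3, Tbr1 had 0 reads and Eomes stood at 0.406 CPM, while En2 stood highest of the group at 74.8 CPM. That library had 12 reads of Neurod2 and 10 of Neurod6, but 1435 of Neurog2, 354 of Neurog1 and 661 of Neurod4. Neurod4 was highest there of the AKR/J d12 libraries. In C57BL/6J d12 replicate 3, Neurog1 and Neurod4 were highest and Neurod2, Neurod6, Bhlhe22 and Neurog2 lowest of the 3. In Cav1-null d12 replicate 3 all 8 tested members were lowest, though with library sizes alone Nhlh1 was not. Replicate 1 of AKR/J and of C57BL/6J on d12, the libraries low in En2, held the least Neurog1 and Nhlh1 of their groups. The dorsal forebrain list of 6 genes summed to 109.8 to 417 CPM on d12, 295 to 511 CPM on d15 and 300.3 to 431 CPM on d17 in AKR/J, to 349.6 to 944, 913 to 1084 and 296 to 721 CPM in C57BL/6J, and to 149.9 to 592, 405 to 429.9 and 254 to 363 CPM in Cav1-null fetuses. Its part in the changes between days was not tested.

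Against C57BL/6J, 6 of 8 members differed in AKR/J on d12, 2 higher and 4 lower, beside 28.6% of all tested genes called, 14.5% higher and 14.1% lower. From here each log2 fold change is the short-lived strain over C57BL/6J. Bhlhe22 was 4.25-fold lower (log2 fold change -2.09, SE 0.37, adjusted p = 0.0115), and Neurod2 8.56-fold (log2 fold change -3.10, SE 1.00, adjusted p = 0.0479). Nhlh1 (log2 fold change -0.94, SE 0.27, adjusted p = 0.0326) and Neurog2 (log2 fold change -0.92, SE 0.23, adjusted p = 0.0211) were lower by 1.92- and 1.89-fold. Neurod4 was 2.63-fold higher (log2 fold change 1.40, SE 0.41, adjusted p = 0.0353) and Neurod1 1.62-fold (log2 fold change 0.70, SE 0.20, adjusted p = 0.0330). The Neurod2 call was kept in 1 of the 6 fits that left out 1 library, with log2 fold changes from -3.79 (without AKR/J replicate 2) to -2.56 (without AKR/J replicate 3). The Neurod1 call was also kept in 1 of the 6, those of Neurog2, Neurod4 and Nhlh1 in 2 each and that of Bhlhe22 in 5. For all 6 called members the libraries of the 2 strains did not overlap, as the values above show. How many of all genes did so was not counted. Neurog1 (log2 fold change -0.16, SE 0.39, adjusted p = 0.780) and Neurod6 (log2 fold change -1.86, SE 1.11, adjusted p = 0.231) did not pass. With 1 library left out, the log2 fold change of Neurod6 ran from -2.85 (without AKR/J replicate 1) to -1.30 (without AKR/J replicate 3). The AKR/J libraries of d12 were also those rich in erythroid RNA. Their placenta and decidua genes summed to 37.3 to 752 CPM against 1.61 to 77.6 CPM in C57BL/6J, which overlapped. Of 7 neuron genes, 4 were lower in AKR/J, with a summed level of 1696 to 2155 CPM against 3241 to 5444 CPM in C57BL/6J. The part of these in the differences was not tested. With the GC trend removed, 2 members were called, Bhlhe22 (log2 fold change -2.05, adjusted p = 0.0125) and Neurog2 (log2 fold change -0.65, adjusted p = 0.0400). Neurod2 (log2 fold change -2.77, adjusted p = 0.0593), Nhlh1 (log2 fold change -0.76, adjusted p = 0.0638), Neurod4 (log2 fold change 0.55, adjusted p = 0.297) and Neurod1 (log2 fold change 0.30, adjusted p = 0.243) were not. The count of 6 went to 1 without AKR/J replicate 1 or AKR/J replicate 3, to 2 without C57BL/6J replicate 1 and to 0 without C57BL/6J replicate 2. With both libraries numbered 3 left out, 4 members were called: Bhlhe22, Neurod2, Neurod4 and Neurod6. The shares of all genes called in these fits are not given here.

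On d15, 4 members were lower in AKR/J than in C57BL/6J and none was higher, beside 41.1% of all genes called, 18.8% higher and 22.3% lower. Bhlhe22 was 2.67-fold lower (log2 fold change -1.42, SE 0.20, adjusted p = 0.00125) and Neurod2 2.20-fold (log2 fold change -1.14, SE 0.26, adjusted p = 0.0105), and Neurog2 (log2 fold change -0.50, SE 0.16, adjusted p = 0.0421) and Neurod1 (log2 fold change -0.32, SE 0.11, adjusted p = 0.0495) lay near the threshold. None of the 4 overlapped between the strains, and neither did Neurod4, which was not called. How many of all genes did not overlap was not counted. The values of Neurod4 (log2 fold change 0.39, SE 0.19, adjusted p = 0.131) and the other 3 members did not pass. Neurod6 was called lower without AKR/J d15 replicate 1 (adjusted p = 0.00472), and Nhlh1 without AKR/J d15 replicate 3 (adjusted p = 0.0441). With the GC trend removed, Bhlhe22 (log2 fold change -1.31, adjusted p = 0.00456) and Neurod1 (log2 fold change -0.55, adjusted p = 0.0229) were called, and Neurod2 (log2 fold change -0.75, adjusted p = 0.0813) and Neurog2 (log2 fold change -0.18, adjusted p = 0.524) were not. The count of 4 went to 2 without any 1 of the C57BL/6J libraries and to 1, Bhlhe22, in 1 model of all 27 libraries. AKR/J d15 replicate 2 also held 172 CPM of eye genes, against at most 3.76 CPM in the libraries of other groups; all 8 tested members were lowest of the group in that library. All 6 dorsal forebrain genes were also lower in AKR/J on d15, and their part in the differences was not tested.

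On d17 no member was called between AKR/J and C57BL/6J by edgeR's quasi-likelihood test, beside 0.742% of all genes. With an unadjusted p under 0.05 there were 3 members, with the share of all genes at that threshold not given here. The DESeq2 Wald test called 1, Neurod6. Neurod6 was at 402, 402 and 300.5 CPM in AKR/J and 196, 225 and 247 CPM in C57BL/6J, which did not overlap (log2 fold change 0.71, SE 0.17, adjusted p = 0.120). Without C57BL/6J d17 replicate 2, a fit whose share of all genes called is not given here, 3 members were called: Neurod6 (log2 fold change 0.73, adjusted p = 0.0186), Neurod4 (log2 fold change 1.04, adjusted p = 0.0208) and Bhlhe22 (log2 fold change -0.88, adjusted p = 0.00826). That library had the least Bhlhe22, Neurod2 and Neurog2 of its group, with 35.9 CPM of Tbr1 against 164 and 63.7 CPM in the other two.

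Cav1-null fetuses differed from C57BL/6J in 7 of 8 members on d15, 6 lower and 1 higher. Of all tested genes 58.6% were called, 26.8% higher and 31.8% lower, so a call by itself sets a member little apart. Neurog1 was 5.50-fold lower (log2 fold change -2.46, SE 0.23, adjusted p = 7.85e-06), Nhlh1 3.67-fold (log2 fold change -1.88, SE 0.12, adjusted p = 4.68e-07) and Neurog2 2.22-fold (log2 fold change -1.15, SE 0.09, adjusted p = 1.54e-06). Bhlhe22 (log2 fold change -0.65, SE 0.06, adjusted p = 5.40e-06), Neurod2 (log2 fold change -0.53, SE 0.07, adjusted p = 9.58e-05) and Neurod1 (log2 fold change -0.37, SE 0.08, adjusted p = 0.00250) were lower by 1.57-, 1.44- and 1.29-fold. Neurod6 was 1.60-fold higher (log2 fold change 0.68, SE 0.08, adjusted p = 4.68e-05), and Neurod4 was log2 fold change 0.11, SE 0.25, adjusted p = 0.734. As the values above show, none of the 7 overlapped between the strains, and all 7 were called with each library left out in turn. How many of all genes did the same was not counted. In 1 model of all 27 libraries, 4 were called (Neurog1, Neurog2, Neurod1 and Nhlh1), and Neurod2, Neurod6 and Bhlhe22 were not. All 6 dorsal forebrain genes and 6 of 7 progenitor genes were lower too, and their part was not tested. With the GC trend removed, Neurog1 (log2 fold change -1.88, adjusted p = 3.50e-05), Nhlh1 (log2 fold change -1.47, adjusted p = 2.87e-06) and Neurog2 (log2 fold change -0.65, adjusted p = 0.000209) stayed lower. Neurod6 went to log2 fold change 0.22, adjusted p = 0.0186, Neurod2 changed sign and was not called (log2 fold change 0.06, adjusted p = 0.583), and Neurod4 changed sign and was called lower (log2 fold change -0.69, adjusted p = 0.0191).

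On d12 no member and no gene at all was called between Cav1-null and C57BL/6J mice by edgeR's quasi-likelihood test, where 4309 genes and 2 members had an unadjusted p under 0.05. The 2 members, Nhlh1 (log2 fold change -1.09, SE 0.23, adjusted p = 0.105) and Neurog1 (log2 fold change -1.53, SE 0.38, adjusted p = 0.105) did not overlap between the strains, and the share of all genes without overlap was not counted. The DESeq2 Wald test called both, among 2044 genes. Without C57BL/6J d12 replicate 3, Nhlh1 was called (log2 fold change -1.02, adjusted p = 0.0481), and with both libraries numbered 3 left out, Nhlh1 (log2 fold change -0.91, adjusted p = 0.0358) and Neurod6 (log2 fold change 0.88, adjusted p = 0.0176) were called. The shares of all genes called in these fits are not given here. On d17 no member was called by edgeR's test, beside 0.0491% of all genes. With an unadjusted p under 0.05 there were 3 members, with the share of all genes at that threshold not given here. The DESeq2 Wald test called 1, Nhlh1 (log2 fold change -1.04, SE 0.23, adjusted p = 0.575 by edgeR), whose libraries did not overlap. Without C57BL/6J d17 replicate 2, a fit whose share of all genes called is not given here, 4 members were called lower in Cav1-null fetuses: Nhlh1 (log2 fold change -1.12, adjusted p = 0.0261), Neurog2 (log2 fold change -0.94, adjusted p = 0.0243), Bhlhe22 (log2 fold change -1.14, adjusted p = 0.0243) and Neurod2 (log2 fold change -0.65, adjusted p = 0.0488). Both strain comparisons use the same C57BL/6J libraries.

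**Figure D4:**
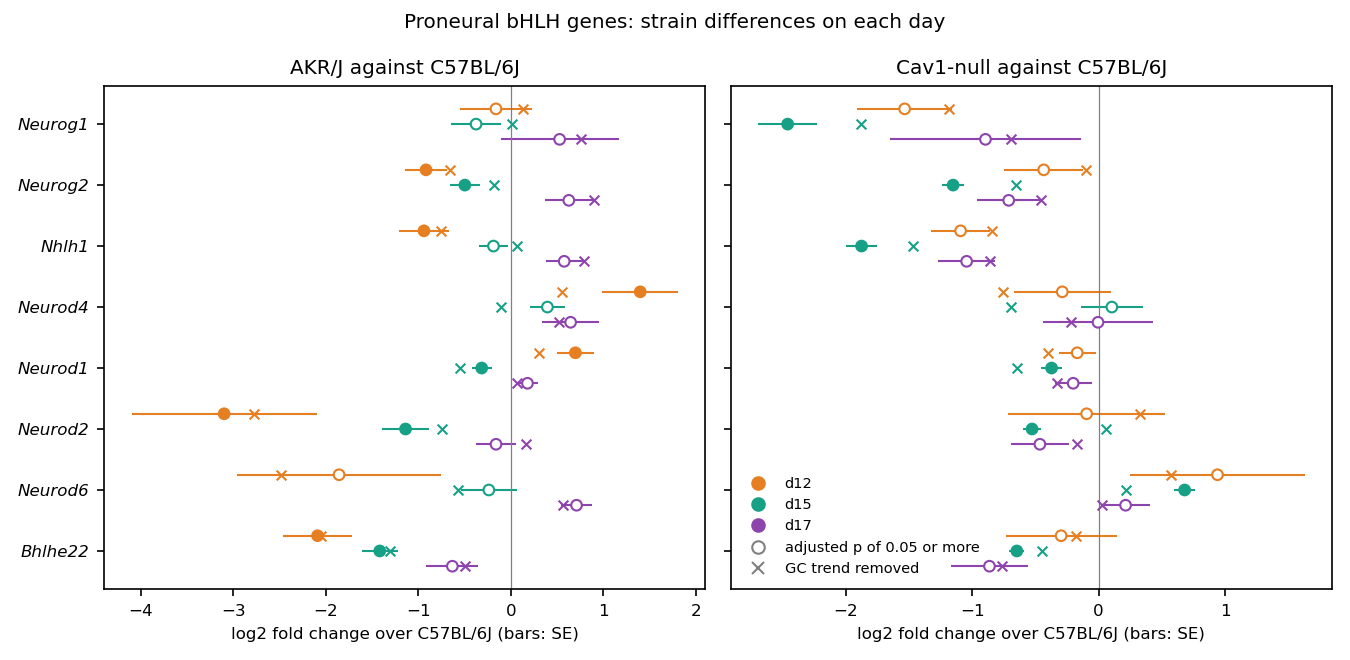
Points give the log2 fold change of AKR/J (left) and Cav1-null fetuses (right) over C57BL/6J on each day, with bars of 1 SE; filled points passed an adjusted p of 0.05, and crosses are the values with the GC trend removed. Neurog1, Neurog2 and Nhlh1 of Cav1-null fetuses on d15 stay below 0 as crosses, and Neurod2 and Neurod4 of Cav1-null fetuses on d15 have crosses on the other side of 0.

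The Neurod6 to Neurod2 ratio within a library was higher in all Cav1-null libraries than in all C57BL/6J libraries of the same day. C57BL/6J had 0.907, 0.807 and 0.777 Neurod6 reads per Neurod2 read on d12, 0.838, 0.777 and 0.813 on d15 and 0.875, 1.61 and 1.25 on d17. Cav1-null fetuses had 1.56, 2.20 and 1.30, then 1.77, 1.69 and 2.15 and then 2.14, 1.68 and 1.90. AKR/J had 3.41, 1.13 and 0.833 on d12, which overlapped the C57BL/6J values, then 1.61, 1.48 and 1.34 and then 2.04, 2.32 and 2.18, which lay above them. Neurod6 is 42.1% GC and Neurod2 58.3%, and the C57BL/6J libraries of d12 and d15 are those whose level rises with GC. On d17 the slopes of the C57BL/6J libraries, as log2 for each 10 points of GC, were 0.311, -0.196 and 0.0555. With the GC trend removed, the fits of Cav1-null over C57BL/6J put the 2 genes closer together on each day. Neurod6 and Neurod2 stood at log2 fold changes of 0.94 and -0.09 on d12 before and 0.57 and 0.33 after, at 0.68 and -0.53 on d15 before and 0.22 and 0.06 after, and at 0.21 and -0.46 on d17 before and 0.03 and -0.17 after. The difference between the 2 genes, and the part of GC content in it, were not tested.

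No difference between strains in a change between days was called for any member by edgeR's quasi-likelihood test, where the members with an unadjusted p under 0.05 were 2 (AKR/J early), 6 (AKR/J late), 1 (Cav1-null early) and 2 (Cav1-null late). In the 4 interaction fits of 12 libraries, 0.0711% and 0.00468% of genes were called for AKR/J against C57BL/6J in the early and late phase, and 0.00472% and 0.252% for Cav1-null fetuses. These shares are at an adjusted p under 0.05, and the shares of genes at an unadjusted p under 0.05 are not given here. The smallest adjusted p in AKR/J early was that of Neurod1, log2 fold change -0.99, SE 0.23, adjusted p = 0.138, and in Cav1-null late that of Nhlh1, log2 fold change 0.78, SE 0.23, adjusted p = 0.1001. The DESeq2 Wald test called both of these and no other member. For Neurog2 in the late phase, the AKR/J value less the C57BL/6J value was log2 fold change 1.19, SE 0.33, adjusted p = 0.516. Without AKR/J d12 replicate 2, Neurod1 was called in AKR/J early, and without C57BL/6J d17 replicate 1, Neurog2 was called in AKR/J late and Nhlh1 in Cav1-null late.

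Genes that act with the family were counted over fixed lists, with the median log2 fold change of a list beside that of all genes. Among 18 known targets and partners of proneural factors, 0 rose and 10 fell late in AKR/J (median -0.69, all genes -0.01), 0 and 12 in C57BL/6J (-1.14, all genes 0.03), and 0 and 15 in Cav1-null fetuses (-0.53, all genes 0.00). Eomes, the regulator of intermediate progenitors, had the largest change in C57BL/6J (log2 fold change -2.29, adjusted p = 0.00477) and Cav1-null fetuses (log2 fold change -1.52, adjusted p = 6.23e-06), and the cell cycle inhibitor Cdkn1c in AKR/J (log2 fold change -1.53, adjusted p = 0.00547). Early, 3 of these 18 rose and 3 fell in AKR/J, 1 and 7 in C57BL/6J, and 0 and 8 in Cav1-null fetuses (medians 0.14, -0.39 and -0.45, all genes 0.02, -0.04 and -0.01). They were led by Dcx, a microtubule protein of migrating neurons (log2 fold change 2.02, adjusted p = 0.00176 in AKR/J), the Notch ligand Dll3 (log2 fold change -1.11, adjusted p = 0.0160 in C57BL/6J) and Cdkn1c (log2 fold change -1.79, adjusted p = 0.00304 in Cav1-null fetuses). On d15, 16 of the 18 were lower and 1 higher in Cav1-null than in C57BL/6J mice (median -0.97, all genes 0.03), beside 58.6% of all genes called, 31.8% lower and 26.8% higher, led by Insm1, a zinc finger gene of newborn neurons (log2 fold change -2.09, adjusted p = 1.51e-08).

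Each list is read against the share of all genes called, which in AKR/J, C57BL/6J and Cav1-null fetuses was 28.9, 14.9 and 23.4% early and 22.1, 13 and 27.3% late, and against the medians of all genes, 0.02, -0.04 and -0.01 early and -0.01, 0.03 and 0.00 late. Values below follow that order of strains, and medians are of the log2 fold change. Other neural bHLH activators, a list of the Olig genes, Tal2 and others with 9 of 10 tested, gave 1 rise in each strain and 2, 5 and 5 falls early (medians -0.92, -0.85 and -1.05), and 1, 0 and 2 rises and 5 falls in each strain late (-1.03, -0.76 and -0.74). Olig3, of dorsal hindbrain progenitors, had the largest late change in AKR/J (log2 fold change -2.92, adjusted p = 0.00276), and Tal2, of midbrain GABAergic neurons, in C57BL/6J (log2 fold change -3.09, adjusted p = 0.00515) and Cav1-null fetuses (log2 fold change -2.64, adjusted p = 1.43e-06). Early, Olig1, of the oligodendrocyte lineage, had the largest change in AKR/J, a rise (log2 fold change 3.32, adjusted p = 0.00193). In the other strains it was a fall of Olig3 (log2 fold change -2.53, adjusted p = 0.00916 in C57BL/6J and log2 fold change -3.16, adjusted p = 0.000195 in Cav1-null fetuses). Of the 3 E-protein partners, 1 rose early in AKR/J, 2 fell early in each of the other strains (medians -0.33, -0.45 and -0.71) and 2 fell late in every strain (-0.75, -0.78 and -0.48). Tcf3 led them late (log2 fold change -0.78, adjusted p = 0.00318, then log2 fold change -1.22, adjusted p = 0.0118 and then log2 fold change -0.49, adjusted p = 0.00189).

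Among 5 Hes and Hey repressors, which hold neurogenins down, 1, 3 and 5 fell early (medians -0.22, -0.69 and -1.17) and 4, 1 and 1 fell late (-1.04, -0.33 and 0.04), and none rose in either phase. Hes5 changed most early (log2 fold change -2.06, adjusted p = 0.00356, then log2 fold change -1.77, adjusted p = 0.0178 and then log2 fold change -1.44, adjusted p = 0.00356) and Hes1 late (log2 fold change -1.29, adjusted p = 0.00118, then log2 fold change -0.95, adjusted p = 0.0273 and then log2 fold change -0.68, adjusted p = 0.00278). Of the 4 Id inhibitors, Id3 fell early in AKR/J (log2 fold change -1.70, adjusted p = 0.0179) and Id2 rose late there (log2 fold change 0.89, adjusted p = 0.00156), and 1 rose and 2 fell early in Cav1-null fetuses. No other Id call was made in either phase, and the medians were -1.08, -0.49 and -0.72 early and -0.45, 0.12 and -0.18 late. Of 7 progenitor genes, 5, 3 and 5 fell early (medians -0.81, -0.50 and -1.26) and 6, 4 and 5 fell late (-1.11, -1.10 and -0.50), while 1 rose early in Cav1-null fetuses and 1 rose late in each of AKR/J and C57BL/6J. Of 7 neuron genes, 6, 4 and 3 rose early (medians 1.46, 0.69 and 0.38) and 2, 2 and 4 rose late (0.26, -0.10 and 0.24), and none fell. The part of these genes in the members' changes was not tested.

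Over the 9 group means of log2(CPM + 1), the members fell into patterns. Neurog2 and Nhlh1 were alike with a Pearson r of 0.970, Neurog1 and Nhlh1 with 0.941, and Neurog1 and Neurog2 with 0.906. Neurod2 had an r of 0.948 with Neurod6 and 0.942 with Bhlhe22. Neurod4 ran against Bhlhe22 with an r of -0.890. These values describe 9 points that share libraries, depth and day. Among all genes with a mean of at least 8 CPM, the patterns most like the members were, for Neurog1, Chtf18, Dbx1 and Mybl2 (r of 0.996, 0.996 and 0.995), and for Neurog2, Elf2, Cdkn2c and Sec63 (0.995, 0.993 and 0.993). Nhlh1 was closest to Golim4, Nt5dc2 and Zfp217 (0.989, 0.988 and 0.988), and Neurod4 to Arl6ip6, Atf1 and Nme4 (0.991, 0.990 and 0.989). For Neurod2 they were Podxl2, Cdk19 and Slc66a2 (0.990, 0.989 and 0.989), for Neurod6 Ttc39c, Socs2 and Dop1a (0.991, 0.990 and 0.989), and for Bhlhe22 Insyn2a, Herc3 and Kirrel3 (0.992, 0.992 and 0.990). Neurod1 had no match of that closeness; its best were Slc25a38, Smim19 and Cdkn1b (0.899, 0.897 and 0.893). These names depend on the measure. Over the 27 libraries in place of the group means, 0 to 2 of the 3 genes of a member were the same, and with log2(CPM + 0.1) 0 (Neurog1) to 3.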

How the data were processed

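Poly-A RNA of 27 whole fetal brains was sequenced for the authors at Novogene. Per the labels, reads were checked and trimmed with FastQC, cutadapt and fastp and aligned to GRCm39 with STAR. The deposited values are raw read counts per gene; the counting tool and its use of strand are not given in the sources used here. Of all table values from 1 to 12, 60.4% are even, and whether both reads of a pair were counted is not given either. Groups came from the labels. Depth limits the precision of Neurog3 and of Neurog1 on d17.

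Each pair of groups (6 libraries) was fitted with edgeR 4.0.16 in R 4.3.3 (filterByExpr, TMM scaling, quasi-likelihood F test), with p-values adjusted by Benjamini-Hochberg over all tested genes; interactions used 12 libraries. The SE was the log2 fold change divided by the square root of F. CPM used TMM-scaled sizes over all 27 libraries. Alternatives were DESeq2 1.42.0 (Wald test), RLE size factors, library sizes alone, no filter, 1 model of 27 libraries, a block for the replicate number, and fits without 1 library. Removal of a GC spline per library and of the d12 libraries numbered 3 was added after seeing the data. The scripts were tested on simulated data.

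Members, gene lists and markers were chosen with earlier results of these data known. Named genes were all members, the called gene of each pathway list with the largest change, the genes needed to read a result, and the 3 genes most like each member by Pearson's r. En2, Tbr1 and Eomes in single libraries were named after their values were seen.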

Additional observations from a re-analysis of the deposited data

How the results depend on the processing

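Over 128 member changes and 1888 alternative fits, 1644 kept their direction and side of the threshold, 119 lost a call, 68 gained one, 55 that were never called changed sign and 2 others changed sign, of which 1 was called only before and 1 only after the change. Both came with the GC trend removed, in Cav1-null against C57BL/6J on d15: Neurod2 went to a log2 fold change of 0.057 (adjusted p = 0.583) and Neurod4 to -0.69 (adjusted p = 0.0191). That setting also gave 7 calls in C57BL/6J from d15 to d17 and 2 in AKR/J against C57BL/6J on d12 and on d15. One model of all 27 libraries gave 3 late calls in AKR/J and 3 in Cav1-null fetuses. It gave 1 in AKR/J against C57BL/6J on d15, 2 and 4 in Cav1-null against C57BL/6J on d12 and d15, and 1 in the AKR/J early interaction. DESeq2 gave 5 early calls in C57BL/6J, 1 in each strain against C57BL/6J on d17, 2 in Cav1-null against C57BL/6J on d12, and 1 in the AKR/J early and Cav1-null late interactions. By name, 1 model of all 27 libraries did not call Neurod4 and Bhlhe22 late in AKR/J, Neurod2 and Neurod6 early in Cav1-null fetuses, Neurod1, Neurod2, Neurod4 and Neurod6 late there, Neurog2, Neurod1 and Neurod2 in AKR/J against C57BL/6J on d15, or Neurod2, Neurod6 and Bhlhe22 in Cav1-null against C57BL/6J on d15. Library sizes alone did not call Neurog1 early in AKR/J, Neurod1 late in C57BL/6J, Neurod1 and Neurod4 in AKR/J against C57BL/6J on d12, Neurog2 and Neurod1 in that comparison on d15, or Neurod1 in Cav1-null against C57BL/6J on d15. Without a filter on low counts there were 1 call in AKR/J against C57BL/6J on d17 and 2 in Cav1-null against C57BL/6J on d12. RLE size factors gave 2 calls in AKR/J against C57BL/6J on d15. With both d12 libraries numbered 3 left out there were 2 calls in Cav1-null against C57BL/6J on d12 and 1, Neurog2, in the Cav1-null early interaction. The cause of these changes was not tested.

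With each library left out in turn, early calls ranged from 3 to 5 in AKR/J, 0 to 5 in C57BL/6J and 2 to 7 in Cav1-null fetuses, and late calls from 3 to 6, 3 to 6 and 5 to 7. AKR/J against C57BL/6J ranged from 0 to 5 on d12, 2 to 5 on d15 and 0 to 3 on d17, and Cav1-null against C57BL/6J from 0 to 1, 7 to 7 and 0 to 4. The interactions ranged from 0 to 1, except the Cav1-null early one, which stayed at 0. Of the 46 calls, 25 were made in each of the 6 such fits.

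Equal replicate numbers did not pair the libraries: the deviations of same-numbered libraries correlated above 0.1 in at most 1 of 3 pairs of any comparison, and nothing in the labels ties a number to a litter. With the replicate block there were 6, 0 and 5 early calls and 5, 4 and 7 late calls in AKR/J, C57BL/6J and Cav1-null fetuses. The early calls not made with the block were Neurog1, Bhlhe22 and Nhlh1 in C57BL/6J and Neurod6 in Cav1-null fetuses. Late in AKR/J Neurod4 was lost and Neurod6 gained, and in AKR/J against C57BL/6J on d15 Neurog2 and Neurod1 were lost. The blocked strain comparisons gave 7, 2 and 0 calls for AKR/J on d12, d15 and d17 and 0, 7 and 0 for Cav1-null fetuses, and no interaction was called.

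With library sizes alone, the median gene of AKR/J changed by 0.46 (log2) between d12 and d15 instead of 0.02, where the TMM factors of the d12 libraries were 0.679 to 1.07.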
